A study of Mus musculus with 55 samples.

Results

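The 83 genes described here encode the proteins of the cytosolic ribosome in the mouse, 32 of the small 40S subunit and 51 of the large 60S subunit. They were chosen by symbol, as protein-coding genes named Rps or Rpl with a number and at most a short suffix, together with Rpsa, Rplp0, Rplp1 and Rplp2. Kinases of the Rps6k family and pseudogenes were left out. All 83 were present among the 31933 gene rows of each count table. The tables hold 55 RNA sequencing libraries from male C57BL/6NRj mice that were 10 weeks old and drank corticosterone (GC), which is the chief glucocorticoid in this species, or placebo (Ctrl) with their water for 4 weeks. The mice were kept at 22 °C (room temperature, RT) or at 13 °C (cold temperature, CT), and the study asked how glucocorticoid action on fat depots depends on housing temperature. Interscapular brown fat (iBAT) has 3 Ctrl RT libraries and 5 in each other group. Gonadal white fat (goWAT) has 4 Ctrl RT libraries and 5 in each other group. Subcutaneous white fat (scWAT) has 4 Ctrl RT, 5 GC RT, 5 Ctrl CT and 4 GC CT libraries, the last being replicates 1, 3, 4 and 5. Cryosections were sampled by laser capture microdissection, and about 2 ng of RNA per library was made into cDNA by SMARTSeq2, a full-length method that does not mark strand. How the captured areas were chosen is not stated, and no label ties a library to an animal, so the p-values measure only the spread between these libraries.

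Each ribosome holds a single copy of nearly every ribosomal protein, and cells make these proteins in step with ribosomal RNA in the nucleolus. In mammals most of their mRNAs start with a C followed by an unbroken run of pyrimidines, the terminal oligopyrimidine (TOP) motif, through which mTORC1 and the RNA-binding protein LARP1 control how strongly they are translated. Transcript counts such as those used here do not measure that translation. Ribosomal protein genes are also known for a very large number of processed pseudogenes in mammalian genomes, which complicates the assignment of short reads.

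The RefSeq promoter table (GRCm38.p6) held 63 of the 83 genes. A run of at least 7 pyrimidines was counted from a C within 10 bases of the annotated start, whatever base came before that C. It was found for 30 of these 63 (47.6%), against 14.1% of all 27025 genes in that table. The starts of 6 genes whose level differed between groups of a depot are shown, with that of Rpl39l, which differed most between depots. Each window covers 15 bases before the annotated start and 15 from it, 5′ to 3′ on the gene's strand. Capitals mark the pyrimidine run as counted from that C.
Rps18 (chr17:33955651-33955680, minus strand): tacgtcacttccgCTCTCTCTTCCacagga
Rps27 (chr3:90213634-90213663, minus strand): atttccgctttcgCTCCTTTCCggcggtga
Rps19 (chr7:24884898-24884927, plus strand): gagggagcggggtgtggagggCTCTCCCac
Rpl34 (chr3:130730323-130730352, minus strand): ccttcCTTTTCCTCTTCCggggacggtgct
Rplp2 (chr7:141447636-141447665, plus strand): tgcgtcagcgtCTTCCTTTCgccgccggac
Rpl39 (chrX:37085208-37085237, minus strand): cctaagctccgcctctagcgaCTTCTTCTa
Rpl39l (chr16:10170213-10170242, plus strand): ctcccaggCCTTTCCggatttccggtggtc
The capitals begin at a C within 10 bases of the annotated start. In Rpl34 and Rplp2 pyrimidines also stand directly before the capitals, so the unbroken run there is longer than marked. The run of Rpl39l, a paralog of Rpl39, lies wholly before the start. The word CCGGAAGT, on either strand within 250 bases before to 50 after the start, occurred for 12 of the 63 genes (19.0%) and for 4.31% of all promoters. The word AAGATGGC occurred for 6 (9.52%, against 3.19%), and TATAAA for 7 (11.1%, against 15.7%). These matches describe letters in the window and nothing else.

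The library totals ran from 8622178 to 56450653 gene counts, with a median of 26951906. Counts in the 83 genes made up 0.289% to 1.25% of each library's total, with a median of 0.621% and 95% Wilson intervals of 0.00182 to 0.0064 percentage points on either side. Those intervals cover counting error only, since the reads carry no molecular identifiers, and the spread between libraries of a group was far wider. Mitochondrially encoded genes took 1.67% to 29.5% of counts. In bulk samples like these, fewer cells of a type and less RNA per cell cannot be told apart.

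The widest separation of this share was in scWAT. The 5 GC RT libraries held 1.06%, 1.25%, 1.15%, 1.05% and 0.939% of their counts in ribosomal protein genes (mean 1.09% ± 0.116, SD, n = 5). The 4 GC CT libraries held 0.493%, 0.432%, 0.457% and 0.882% (0.566% ± 0.212, n = 4). Every GC RT value was above every GC CT value, with GC CT replicate 5 standing nearest to the GC RT range. The means of the Ctrl groups of scWAT lay between, at 0.789% ± 0.178 (n = 4) at 22 °C and 0.626% ± 0.210 (n = 5) at 13 °C.

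In goWAT the share was 0.638% ± 0.0866 (SD, n = 4) in Ctrl RT, 0.764% ± 0.293 (n = 5) in GC RT, 0.554% ± 0.119 (n = 5) in Ctrl CT and 0.780% ± 0.253 (n = 5) in GC CT. In iBAT it was 0.746% ± 0.113 (n = 3) in Ctrl RT, 0.589% ± 0.217 (n = 5) in GC RT, 0.516% ± 0.125 (n = 5) in Ctrl CT and 0.594% ± 0.108 (n = 5) in GC CT. The ranges of the 4 groups overlapped in goWAT, from 0.399% to 1.17% over all its libraries. In iBAT the lowest library, at 0.289%, and the highest, at 0.896%, were both in GC RT. No test was made on this share, which is a sum over the chosen genes.

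**Figure D1:**
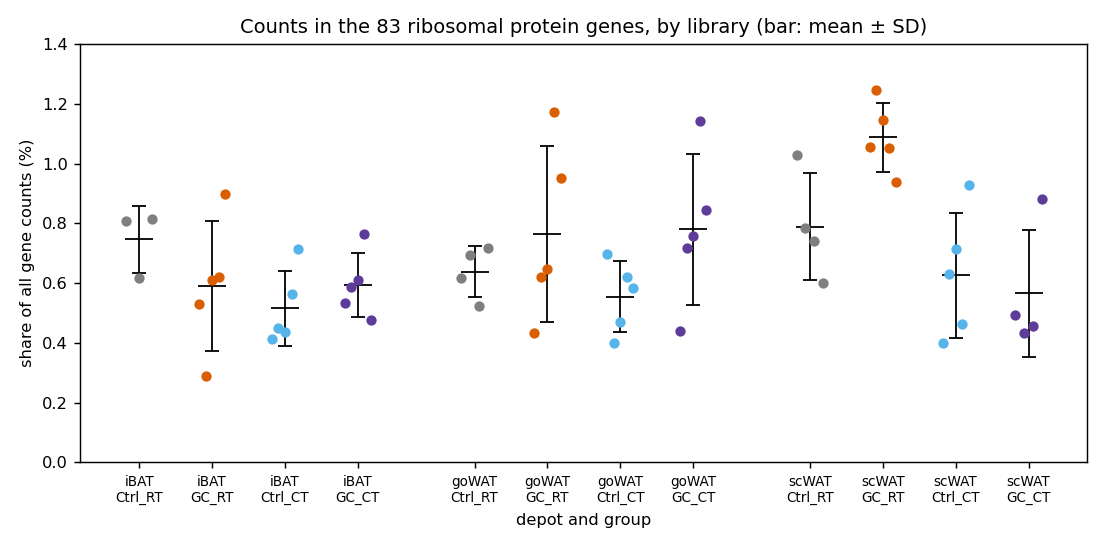
Share of all gene counts (percent, y axis) in the 83 ribosomal protein genes, with 1 point per library and mean ± SD bars for the 12 groups on the x axis. The 5 scWAT GC RT libraries lie between 0.939% and 1.25%, above all 4 scWAT GC CT libraries, while the groups of goWAT overlap.

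The genes differed widely in level even though the ribosome holds their products in nearly equal number. Per kilobase of mRNA, and as the mean over all 55 libraries, the highest were Rpl32 at 593 CPM per kb (CPM being counts scaled to 1000000 per library), Rpl41 at 588 and Rps14 at 542. Rpl32 and Rpl41 belong to the 60S subunit and Rps14 to the 40S subunit. The lowest were Rpl10l at 0.0114 CPM per kb, Rpl3l at 0.432 and Rpl17 at 2.73. The first and second of these are paralogs, while Rpl17 is a standard component of the 60S subunit.

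Sequence shared with other annotated genes bears on these levels. Of the 83 genes, 80 had at least 1 stretch of 50 bases that also occurs in a transcript of another gene, and the median gene shared 53.5% of its stretches. For Rpl17 it was 78.7%, with 50 pseudogenes among the genes that share, and for Rpl10 92.1%. The 14 genes under 25% had a median of 89.0 CPM per kb, the 46 genes from 25% to 75% a median of 67.0, and the 23 genes at 75% and over a median of 25.4. Across genes, which are not independent replicates, Spearman's rho between the shared percentage and the level per kb was -0.36 over the 83 members and -0.50 over the 77 members that are not paralogs. How reads matching several places were counted is not given in the sources used here, so the levels of genes with much shared sequence are uncertain.

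**Figure D2:**
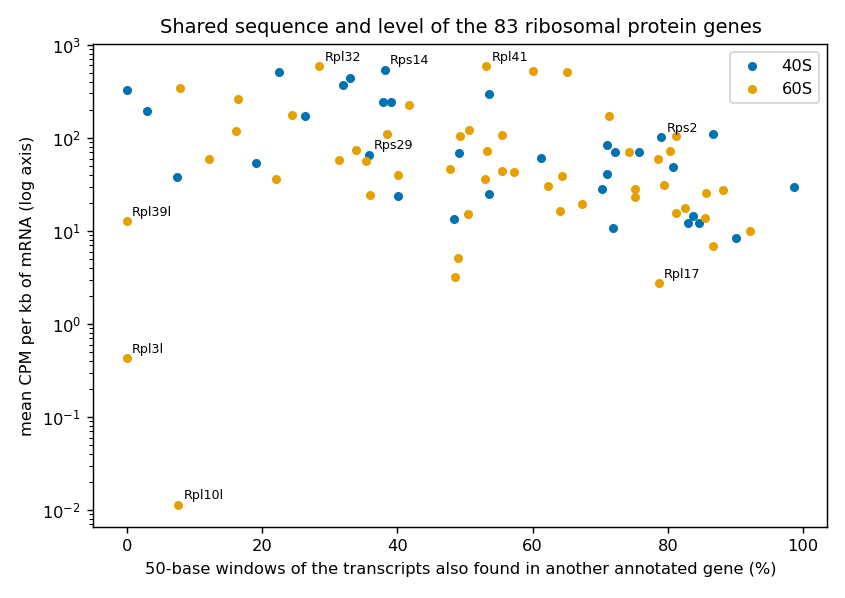
Percent of 50-base windows of each gene's transcripts also found in another annotated gene (x axis) against the mean level in CPM per kb of mRNA over 55 libraries (y axis, log scale), with 1 point per gene for the 83 genes, coloured by subunit. The 23 genes at or past 75% have a median of 25.4 CPM per kb, against 89.0 for the 14 genes under 25%.

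In scWAT of corticosterone-treated mice, 28 of the 81 ribosomal protein genes tested fell at 13 °C relative to 22 °C and 0 rose, by edgeR's quasi-likelihood test at a Benjamini-Hochberg adjusted p under 0.05. Over all 19003 genes tested in that comparison, 5.17% fell and 3.02% rose. The median log2 fold change of the 81 was -0.74, against -0.0032 over all genes, and the fold change was negative for 80 of them. The GC CT and GC RT libraries did not overlap, with GC CT lower, for 32 of the 81 genes, against 5.35% of all genes. Both subunits took part, with 11 of 32 genes of the 40S subunit (median -0.87) and 17 of 49 of the 60S subunit (median -0.66).

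Among 40S genes the largest falls were those of Rps29 and Rps28, both small proteins of the head of the subunit. Rps29 (chr12:69157722-69159186 on GRCm38, minus strand) stood at 23.5, 45.5, 51.2, 52.9 and 61.4 CPM in the 5 GC RT libraries and at 9.56, 7.21, 15.1 and 15.03 CPM in the 4 GC CT libraries. The groups did not overlap, and GC RT replicate 1 was the lowest of its group. The log2 fold change was -1.99 ± 0.43 (SE; edgeR quasi-likelihood test, adjusted p = 0.0144). Rps28 stood at 28.7, 36.6, 37.1, 36.9 and 42.2 CPM in GC RT and at 8.32, 7.72, 9.21 and 15.7 CPM in GC CT. Its groups did not overlap either, and it fell by 1.81 ± 0.38 on the log2 scale (edgeR adjusted p = 0.0144).

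Among 60S genes the largest falls at a mean of at least 3 log2 CPM were those of Rpl39 and Rpl37. Rpl39 is a very short protein that lines the exit tunnel for the growing chain, and its gene is on the X chromosome. It stood at 56.4, 88.4, 191, 200 and 180 CPM in GC RT and at 44.6, 47.7, 51.1 and 45.1 CPM in GC CT. The GC CT libraries were close together, while the GC RT libraries spread over a wide range above them. The log2 fold change was -1.60 ± 0.38 (edgeR adjusted p = 0.0196). Rpl37 stood at 59.0, 82.9, 95.7, 86.1 and 97.8 CPM in GC RT and at 24.7, 22.1, 27.3 and 43.1 CPM in GC CT, a fall of 1.51 ± 0.33 on the log2 scale with no overlap (edgeR adjusted p = 0.0145).

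The 4 X-linked genes all fell in this comparison. Besides Rpl39, these were Rpl10, which joins the 60S subunit last and is needed for its final maturation (-1.27 ± 0.30, edgeR adjusted p = 0.0195), Rps4x (-1.12 ± 0.23, edgeR adjusted p = 0.0144) and Rpl36a (-1.07 ± 0.29, edgeR adjusted p = 0.0329). For each of the 4, every GC CT library lay below every GC RT library. Rpl5 and Rpl11, which form a particle with 5S ribosomal RNA and can bind the p53 regulator Mdm2 when ribosome assembly is disturbed, fell with log2 fold changes of -1.02 ± 0.27 and -1.004 ± 0.28 (edgeR adjusted p = 0.0259 and 0.0342), both without overlap.

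The proteins of the lateral stalk, Rplp0, Rplp1 and Rplp2, recruit elongation factors to the ribosome, and none of these 3 genes was called in this comparison. Their log2 fold changes were -0.59 ± 0.34, -1.16 ± 0.39 and -0.30 ± 0.31. Rplp1 stood at 323, 340, 391, 451 and 398 CPM in GC RT and at 136, 90.4, 120 and 324 CPM in GC CT. Its GC CT replicate 5 thus lay at the lower edge of GC RT, far above the other GC CT libraries. Among further uncalled genes, Rps19 had a log2 fold change of -0.29 ± 0.23, Rps6, the classic substrate of S6 kinases, -0.53 ± 0.24, Rpl13a -0.45 ± 0.27, Rps27a, made as a fusion with ubiquitin, -0.73 ± 0.28, and Rpsa, also known as the laminin receptor, -0.92 ± 0.33.

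By size of the fall, others among the 28 included Rps10 and Rpl17, both under 3 log2 CPM on average, then Rpl34, Rps25, Rpl26, Rpl24, Rps21, Rpl27a, Rps18, Rps15a, Rpl23, Rpl41, Rpl22l1, Rpl35a, Rpl37a, Rpl22 and Rps3, all but Rpl22l1 being standard components of the ribosome. The fall of Rps3, the smallest of the 28, was -0.89 ± 0.26. Of the 30 tested genes with a pyrimidine run at the annotated start, among them Rps18, Rpl34 and Rpl39 of the sequences shown, 9 fell (median -0.68). Of the 31 with a promoter entry and no such run, 15 fell (median -0.92). Genes with an mRNA at or under the median length of 729 bases fell in 18 of 42 cases (median -0.90) and longer ones in 10 of 39 (median -0.63). Other protein-coding genes with mRNAs of at most that length fell in 56 of 473 cases and rose in 6, with a median of -0.31.

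The count of 28 rested on few libraries. How many of all genes were called in the settings below is not given here. Whether a drop was particular to the ribosomal protein genes was therefore not tested. It was 0 without GC RT replicates 2 and 3, the 2 scWAT libraries richest in macrophage markers, where the median was still -0.69 and Rps29 had -1.96 (edgeR adjusted p = 0.0900), and 1 without GC CT replicate 3, 7 without GC CT replicate 4, 12 without GC CT replicate 1 or without GC RT replicate 3, and 18 without GC RT replicate 2. It was also 0 without the 4 scWAT libraries in which the epithelial marker Krt18 was present, of which 3 are GC CT (median -0.99, leaving 1 GC CT library that is assumed to vary like the others).

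Markers of other cells moved with this comparison. The 12 macrophage markers summed to 1311, 10281, 6793, 729 and 1573 CPM in the 5 GC RT libraries and to 527 to 614 CPM in GC CT, and 10 of the 12 fell. None of the 12 was at 0 in any of these libraries. Of 12 cell cycle markers 10 fell, their sum being 7.07 to 252 CPM in GC RT and 4.37 to 6.52 CPM in GC CT. All 5 tested markers of epithelium and epididymis rose, from sums of 0.25 to 2.98 CPM in GC RT to sums of 0.13 to 293 CPM in GC CT, and 3 of 8 progenitor and fibroblast markers fell while 2 of 8 brown adipocyte markers rose. Their part in the falls of the ribosomal protein genes was not tested.

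**Figure D3:**
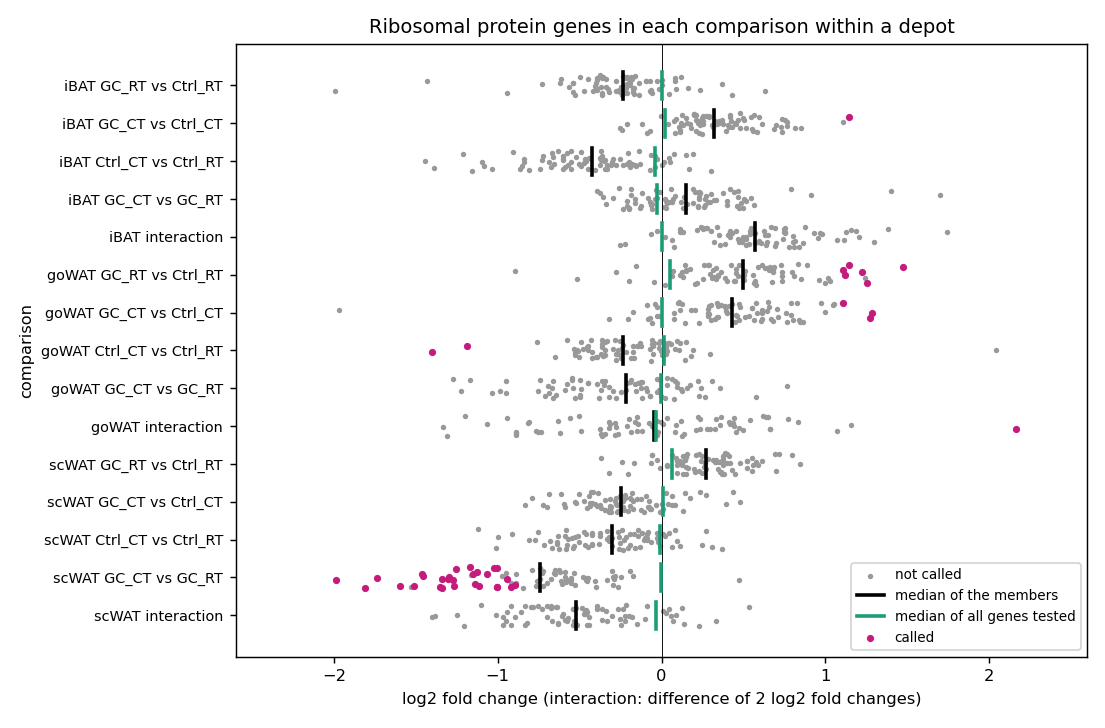
Log2 fold change of each tested ribosomal protein gene (x axis) in the 15 comparisons within a depot (y axis), with 1 point per gene and called genes marked. The points of scWAT GC CT against GC RT lie almost all below 0 with 28 called, and 4 values lie outside the axis.

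No ribosomal protein gene was called in the other comparisons of scWAT. Shares of all genes given for them are at an adjusted p under 0.05. The share of all genes at an unadjusted p under 0.05 is not given, so the counts of members at that threshold have no like value beside them. GC against Ctrl at 22 °C had a median of 0.27 with 71 of 81 fold changes above 0 and 7 genes at an unadjusted p under 0.05 in the edgeR test, where 3.48% of all genes rose and 3.45% fell. GC against Ctrl at 13 °C had a median of -0.25, with 16 of 81 above 0 and 4 genes at an unadjusted p under 0.05, where 2.59% of all genes were called. For 13 °C against 22 °C in Ctrl the median was -0.30, with 13 genes at an unadjusted p under 0.05 and 0% of all genes called. The interaction, in which the log2 fold change with GC at 22 °C is subtracted from that at 13 °C, had a median of -0.52, with 12 genes at an unadjusted p under 0.05 and 0% of all genes called. DESeq2 called 3, 0, 1 and 0 ribosomal protein genes in these 4 comparisons.

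In goWAT, corticosterone at 22 °C went with higher levels of 6 of 81 ribosomal protein genes and lower levels of 0, where 3.13% of all genes tested rose and 2.85% fell. The median log2 fold change was 0.50, against 0.05 over all genes, and 75 of the 81 were above 0. The risers were Rps29, Rps27 and Rps18 of the 40S subunit and Rpl41, Rpl22l1 and Rpl26 of the 60S subunit. All 6 have short mRNAs, and among other protein-coding genes of at most 729 bases 41 of 511 rose and 5 fell, with a median of 0.49.

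Rps29 stood at 10.6, 12.6, 12.05 and 9.32 CPM in the 4 Ctrl RT libraries and at 14.6, 46.4, 21.1, 49.4 and 17.3 CPM in the 5 GC RT libraries. GC RT replicates 2 and 4 were the highest, and the groups did not overlap. It rose by 1.47 ± 0.34 on the log2 scale (edgeR quasi-likelihood test, adjusted p = 0.0119). Rps27, a zinc-binding 40S protein, stood at 6.42, 6.28, 7.28 and 7.45 CPM in Ctrl RT and at 9.22, 22.0, 7.93, 30.2 and 9.28 CPM in GC RT. Replicates 2 and 4 again led, without overlap between groups, and the log2 fold change was 1.25 ± 0.34 (edgeR adjusted p = 0.0308). Its transcripts share 98.6% of their 50-base stretches with other genes, so this count is uncertain.

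Rpl41, the shortest protein of the ribosome, stood at 166, 193, 188 and 168 CPM in Ctrl RT and at 185, 513, 212, 764 and 320 CPM in GC RT (1.22 ± 0.36, edgeR adjusted p = 0.0435). The groups overlapped through GC RT replicate 1. Rpl22l1, the paralog of Rpl22, stood at 18.04, 17.7, 16.3 and 17.6 CPM in Ctrl RT and at 17.1, 39.1, 32.5, 61.9 and 33.5 CPM in GC RT (1.14 ± 0.30, edgeR adjusted p = 0.0256). Here too replicate 1 lay among the Ctrl libraries while the other 4 lay above them. Rpl26 and Rps18 had log2 fold changes of 1.12 and 1.11.

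The count moved with the libraries used, and the share of all genes called in the settings below is not given here. It was 0 without GC RT replicates 2 and 4, the 2 libraries of fewest counts in goWAT (median 0.18, Rps29 0.68 with an edgeR adjusted p of 0.175). It was 3 without replicate 2 alone (2 higher, 1 lower) and 1 without replicate 4 alone. It was 18 without the 2 goWAT libraries richest in brown adipocyte markers, GC RT replicate 1 and GC CT replicate 1, 16 without GC RT replicate 1 alone, and 1, 2, 2 and 0 without Ctrl RT replicates 1, 2, 3 and 4. The brown adipocyte markers summed to 1281 CPM in GC RT replicate 1 and 1882 CPM in GC CT replicate 1 and to 17.1 to 136 CPM in the remaining goWAT libraries, and the part of these libraries' makeup in the result was not tested.

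Markers of other cells differed between Ctrl RT and GC RT as well. The 12 lymphocyte markers summed to 345 to 453 CPM in Ctrl RT and to 75.3 to 209 CPM in GC RT, and 3 of the 12 fell, with at most 1 of them at 0 in a Ctrl RT library and at most 4 in a GC RT library. The 12 cell cycle markers summed to 14.03 to 36.95 CPM in Ctrl RT and to 5.17 to 13.98 CPM in GC RT, with 0 called, none at 0 in Ctrl RT and at most 3 at 0 in a GC RT library. Of 6 tested skeletal muscle markers 2 rose, with sums of 15.7 to 178 CPM in Ctrl RT and 30.8 to 261 CPM in GC RT. Their part in the rise of the ribosomal protein genes was not tested.

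At 13 °C, corticosterone went with higher levels of 3 of 81 genes in goWAT, Rps2, Rps20 and Rplp2, where 0.848% of all genes rose and 0.6% fell. The median was 0.43, against 0.0054 over all genes, and 69 of 81 fold changes were above 0. Rps20, a protein of the 40S head, stood at 93.7, 67.0, 64.5, 105 and 80.3 CPM in Ctrl CT and at 90.8, 107, 236, 317 and 237 CPM in GC CT. GC CT replicate 1 lay within the Ctrl range and replicate 2 just above it. The log2 fold change was 1.29 ± 0.30 (edgeR quasi-likelihood test, adjusted p = 0.0313).

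Rplp2, the stalk protein, stood at 100, 91.2, 75.1, 106 and 96.8 CPM in Ctrl CT and at 147, 132, 208, 298 and 214 CPM in GC CT, without overlap (1.11 ± 0.26, edgeR adjusted p = 0.0311). Its partners Rplp1 and Rplp0 had log2 fold changes of 1.06 ± 0.38 and 0.61 ± 0.22 and were not called. The count of 3 was 0 without any of Ctrl CT replicates 2, 3 and 5 or GC CT replicates 3, 4 and 5, and 1 without Ctrl CT replicate 1 or 4. It was 7 without GC CT replicate 1 or 2, and 5 and 6 without GC RT replicates 1 and 4, which enter through the shared estimate of spread. It was 0 without the 3 libraries rich in epididymis markers, GC RT replicate 5 and Ctrl CT replicates 1 and 4, and 13 without the 2 brown-marker-rich libraries. The share of all genes called in these settings is not given here. Without those 3 epididymis-rich libraries, which leaves 3 Ctrl CT libraries, the log2 fold changes were 1.24 for Rps2, 1.52 for Rps20 and 1.22 for Rplp2 (edgeR adjusted p = 0.138, 0.0924 and 0.102).

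The 12 lymphocyte markers summed to 265.2 to 659.6 CPM in Ctrl CT and to 80.2 to 204 CPM in GC CT, without overlap, and 1 of the 12 fell. At most 1 of them was at 0 in a Ctrl CT library and none in GC CT. Their part in the rise of the 3 genes was not tested.

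In Ctrl mice, goWAT at 13 °C had lower levels of 2 genes, Rps2 and Rps19, than at 22 °C, where 0.292% of all genes fell and 0.0198% rose. Rps19, a 40S head protein that is the gene most often mutated in Diamond-Blackfan anaemia, stood at 246, 267, 216 and 401 CPM in Ctrl RT and at 119, 147, 128, 114 and 107 CPM in Ctrl CT. The groups did not overlap, and Ctrl RT replicate 4 was the highest. It fell by 1.19 ± 0.21 on the log2 scale (edgeR adjusted p = 0.00977). In GC CT it stood at 163, 178, 183, 205 and 161 CPM, above all Ctrl CT libraries, with a log2 fold change of 0.55 ± 0.20 that was not called. The groups of Ctrl mice did not overlap, with 13 °C lower, for 8 of 81 genes, against 2.18% of all genes.

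Rps2 (chr17:24718116-24721929, plus strand) encodes a 40S protein at the entry of the mRNA channel and was the single member called in more than 2 of the comparisons within depots. In goWAT it stood at 132, 158, 80.2 and 242 CPM in Ctrl RT, at 55.3, 119, 58.0, 75.5 and 90.6 CPM in GC RT, at 69.4, 50.4, 61.0, 40.7 and 65.9 CPM in Ctrl CT, and at 83.5, 150, 155, 157 and 140 CPM in GC CT. Ctrl CT lay wholly below Ctrl RT and wholly below GC CT, and GC RT overlapped Ctrl RT. The fall with cold in Ctrl was -1.40 ± 0.29 (edgeR adjusted p = 0.0329), and the rise with GC at 13 °C was 1.27 ± 0.28 (edgeR adjusted p = 0.0221). At 22 °C the log2 fold change with GC was -0.89 ± 0.29 and was not called. The interaction was 2.17 ± 0.40 (edgeR adjusted p = 0.0117), the 1 member called among 81, where 0.327% of all genes had a positive and 0.134% a negative interaction.

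In iBAT, Rps2 stood at 87.1, 90.0 and 97.9 CPM in Ctrl RT and at 170, 106, 152, 163 and 122 CPM in GC RT, a log2 fold change of 0.63 ± 0.30 that was not called although the groups did not overlap. It stood at 43.0, 65.5, 41.9, 42.6 and 99.4 CPM in Ctrl CT and at 146, 96.1, 101, 140 and 180 CPM in GC CT. Ctrl CT replicate 5 reached into the GC CT range, while the other 4 lay below it. It rose with GC at 13 °C by 1.15 ± 0.25 on the log2 scale (edgeR quasi-likelihood test, adjusted p = 0.0342), where 0.32% of all genes rose and 0.408% fell.

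In scWAT, Rps2 stood at 92.9, 102, 88.9 and 64.1 CPM in Ctrl RT and at 91.6, 108, 90.0, 130 and 67.1 CPM in GC RT. It stood at 95.3, 105, 130, 134 and 100 CPM in Ctrl CT and at 54.5, 43.1, 59.98 and 121 CPM in GC CT. The 4 groups overlapped, with 3 of 4 GC CT libraries at the bottom, and the log2 fold change with GC at 13 °C was -0.70 ± 0.28, which was not called. Whether the effect on Rps2 differs between depots was not tested.

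The Rps2 locus limits what its count can say. It hosts Snora64, and Snora78 and Snhg9 overlap it on the other strand, which this library type cannot separate. Its transcripts share 79.0% of their 50-base stretches with other genes, 71 of them pseudogenes. The iBAT call was lost without the macrophage-rich libraries of iBAT (log2 fold change 1.14, edgeR adjusted p = 0.0543). Those libraries are all at 22 °C, so they enter the comparison at 13 °C only through the shared fit. The call was also lost without the muscle-rich libraries of iBAT (1.06, edgeR adjusted p = 0.166). Leaving out any 1 of iBAT Ctrl CT replicates 1, 2, 3 and 4 or GC CT replicates 1, 4 and 5 lost it as well. The 2 goWAT calls in Ctrl mice became 0 without Ctrl RT replicate 4 and 1 without any of Ctrl RT replicates 1 and 2 or of the 5 Ctrl CT libraries, and they and the interaction call became 0 without the 3 epididymis-rich libraries. The log2 fold changes there were -1.37 for Rps2 and -1.15 for Rps19 with cold in Ctrl (edgeR adjusted p = 0.284 and 0.137) and 2.19 for the interaction of Rps2 (edgeR adjusted p = 0.0915).

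**Figure D4:**
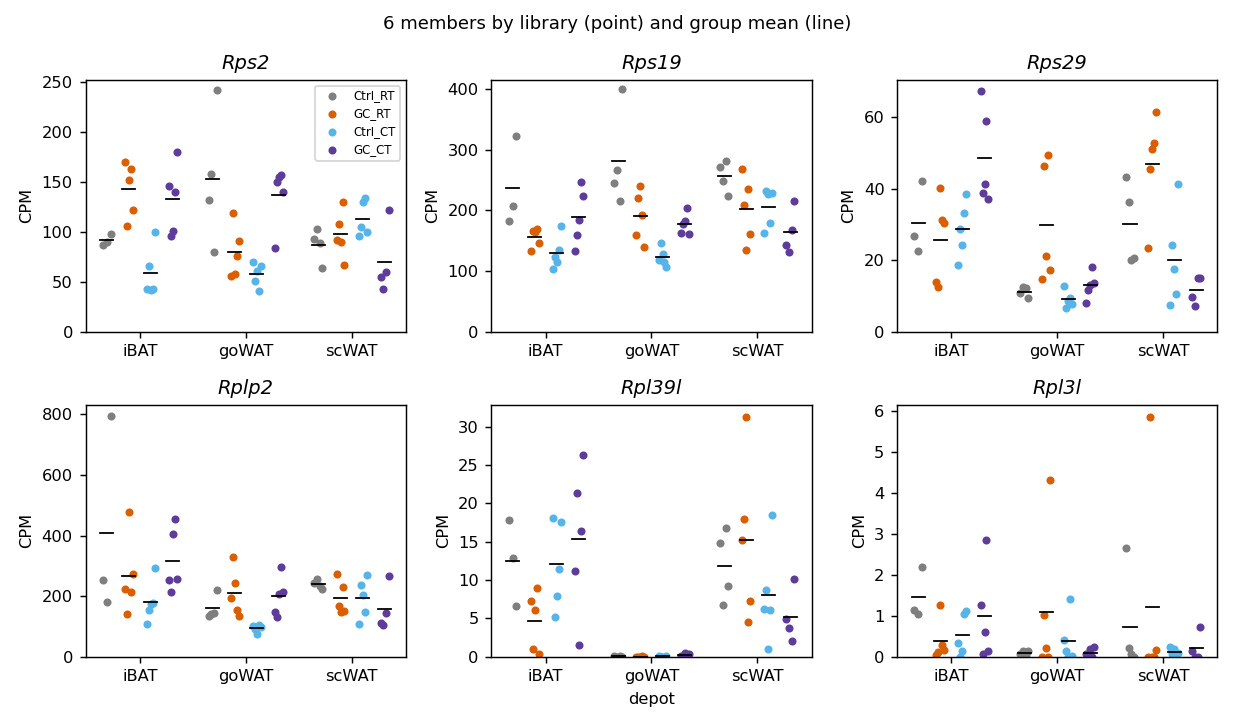
CPM (y axis, starting at 0) of Rps2, Rps19, Rps29, Rplp2, Rpl39l and Rpl3l in each of the 55 libraries by depot and group (x axis), with 1 point per library and a line at each group mean. Rps2 in goWAT shows Ctrl CT at 40.7 to 69.4 CPM below all other goWAT groups' means, and Rpl39l is at 0.461 CPM or less in every goWAT library.

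The rest of goWAT and iBAT held no call. Here too the shares of all genes are at an adjusted p under 0.05, and none is given at an unadjusted p to set beside the counts of members. In goWAT, 13 °C against 22 °C under GC had a median of -0.22 over 81 genes, with 20 at an unadjusted p under 0.05 in the edgeR test, where 0.0149% of all genes were called and DESeq2 called 3 members. That median was 0.07 without the 2 low-count GC RT libraries. In iBAT, GC against Ctrl had a median of -0.23 over 82 genes at 22 °C (0.664% of all genes called, 3 members at an unadjusted p under 0.05). Beside the Rps2 call at 13 °C the iBAT median was 0.32, with 75 of 82 genes above 0. Cold against room temperature in iBAT had a median of -0.43 in Ctrl (0.0175% called, 15 members at an unadjusted p under 0.05) and 0.15 in GC (0.00583% called, 4 members), the last being -0.0098 without GC RT replicate 2. The iBAT interaction had a median of 0.57 with 78 of 82 above 0, 7 members at an unadjusted p under 0.05 and 0% of all genes called. DESeq2 called 0 members in each of these 4 iBAT comparisons without an edgeR call.

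The 6 paralogs of standard ribosomal proteins did not share a pattern. Rpl39l (chr16:10170226-10174911, plus strand), a paralog of Rpl39 known from male germ cells, differed most between depots. It stood at 0.321 to 26.3 CPM in iBAT, at 1.01 to 31.2 CPM in scWAT and at 0 to 0.461 CPM in goWAT. Of the 19 goWAT libraries 4 had no count, and the most was 28 counts, while the 18 scWAT libraries had 38 to 1175. All goWAT libraries lay below all scWAT libraries. Against iBAT the depots met at 1 iBAT library, GC RT replicate 5, whose 0.321 CPM was under the goWAT maximum.

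In a fit over all 55 libraries that compared the means of the 4 groups of each depot, Rpl39l was lower in goWAT than in scWAT by 6.84 ± 0.47 on the log2 scale (edgeR quasi-likelihood test, adjusted p = 4.3e-16) and higher in iBAT than in goWAT by 6.97 ± 0.47 (edgeR adjusted p = 1.4e-17). With so few goWAT counts these sizes depend on the prior count. None of its 50-base stretches occurs in another annotated gene, and no gene overlaps it. Rpl39 itself, at a mean of 64.2 CPM in iBAT, 65.3 in goWAT and 89.7 in scWAT, was not called between depots. Within depots Rpl39l varied over a wide range, for example 1.59 to 26.3 CPM in iBAT GC CT, and was not called in iBAT or scWAT. In goWAT it did not pass the filter on low counts.

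Rpl3l, the paralog of Rpl3 known from striated muscle, was at 5.86 CPM in scWAT GC RT replicate 2, at 4.31 in goWAT GC RT replicate 5, at 2.84 in iBAT GC CT replicate 4 and lower in all other libraries, with 13 libraries at 0. The skeletal muscle markers summed to 2346 CPM in the first of these and to 1181 CPM in the third, the 2 highest sums of the 55 libraries. In goWAT GC RT replicate 5 the epididymis markers summed to 1198 CPM. The part of these cells in the Rpl3l values was not tested. Rpl10l, a copy of Rpl10 known from testis, had 43 libraries at 0 and at most 0.165 CPM.

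Rps27l, a paralog of Rps27 known as a p53 target, was higher in iBAT than in goWAT by 1.27 ± 0.14 on the log2 scale (edgeR adjusted p = 1.4e-10) and than in scWAT by 0.89 ± 0.15 (edgeR adjusted p = 1.3e-06). It averaged 395 CPM in iBAT, 165 in goWAT and 212 in scWAT, and per kb it was the fifth highest of the 83 at 512 CPM, against 29.4 for Rps27. Nearly all 50-base stretches of Rps27 occur in other genes, against under 25% of those of Rps27l, so the comparison of these levels is uncertain. Rpl7l1, a nucleolar relative of Rpl7, was higher in iBAT than in goWAT by 0.47 ± 0.11 (edgeR adjusted p = 0.00041) and than in scWAT by 0.45 ± 0.12 (edgeR adjusted p = 0.0012). Within scWAT it was the single gene of 81 with a fold change above 0 between GC CT and GC RT, at 109, 87.9, 87.3 and 66.2 CPM in GC CT and 93.2, 62.7, 51.04, 57.0 and 50.04 CPM in GC RT (0.47 ± 0.23, not called). Rpl22l1, the sixth, fell in that comparison by 1.12 ± 0.31 (edgeR adjusted p = 0.0337), at 50.3, 49.998, 43.6, 45.0 and 16.6 CPM in GC RT and 20.6, 17.9, 13.3 and 23.7 CPM in GC CT. The groups overlapped through GC RT replicate 5.

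Between depots, 40 of 82 ribosomal protein genes were higher in iBAT than in goWAT and 4 lower, where 23.3% of all genes were higher and 34.1% lower. The median log2 difference was 0.32, against -0.20 over all genes. Besides Rpl39l and Rps27l, the largest were Rps29 (1.204 ± 0.19, edgeR adjusted p = 2.6e-07) and Rps14 (0.96 ± 0.17, edgeR adjusted p = 2.6e-06). Those lower in iBAT were Rps3a1 (-0.40), Rpl32 (-0.34), Rpl4 (-0.31) and Rpl6 (-0.31).

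Against scWAT, iBAT had 16 genes higher and 6 lower of 82 (18.1% and 26.5% of all genes), with a median of 0.08 (-0.02 without the marker-rich libraries), against -0.15 over all genes. The split was 19 higher and 3 lower with RLE size factors and with DESeq2, and 22 higher and 4 lower with limma voom. The largest after Rps27l were Rps14 (0.79), Rpl36 (0.69) and Rpl9 (0.61), and Rps4x was the lowest (-0.45 ± 0.15, edgeR adjusted p = 0.011). Between goWAT and scWAT 0 genes were higher and 11 lower in goWAT (8.91% and 9.12% of all genes), with a median of -0.20, against 0.02 over all genes. Besides Rpl39l these included Rps29 (-0.77 ± 0.18) and Rpl37 (-0.54). The sets of libraries left out of the fits within depots, for markers or in goWAT for low counts, were also left out together. The smallest library of all, in scWAT at 8622178 counts, stayed in. Fewer genes were then called than the 44, 22 and 11 of the full fit. The median differences then moved by -0.095 to -0.0073. That setting leaves a single library in iBAT Ctrl RT and in scWAT GC CT, so it also has less power. These 3 comparisons share libraries and are not independent of each other.

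The genes of the mitochondrial ribosome, a separate machine that translates the transcripts of mitochondrial DNA, were read beside them. Of 77 tested, 74 were higher in iBAT than in goWAT and 0 lower, where 23.3% and 34.1% of all genes were (median 1.26). Against scWAT 75 were higher in iBAT and 0 lower, where 18.1% and 26.5% of all genes were (median 1.04). Between goWAT and scWAT 0 were higher and 25 lower in goWAT, where 8.91% and 9.12% of all genes were. In scWAT between GC CT and GC RT, where 28 cytosolic genes fell, 1 of the 77 rose and 1 fell (median 0.04), beside 3.02% and 5.17% of all genes. In goWAT with GC at 22 °C 3 of the 77 rose and 1 fell, beside 3.13% and 2.85% of all genes. Whether these counts differ from those of the cytosolic genes was not tested.

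Across the 55 libraries the genes moved together within groups. After each gene's group mean was taken off, the median Pearson correlation between pairs of 80 genes was 0.56, and 94.9% of pairs were above 0. The first component held 59.0% of the variance. The libraries share their scaling and any difference in cell makeup, so these values are a description. Rpl37a followed the median of the other genes most closely (0.97), while Rps19 had 0.41, Rpl15 0.07 and Rpl7l1 -0.70.

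**Figure D5:**
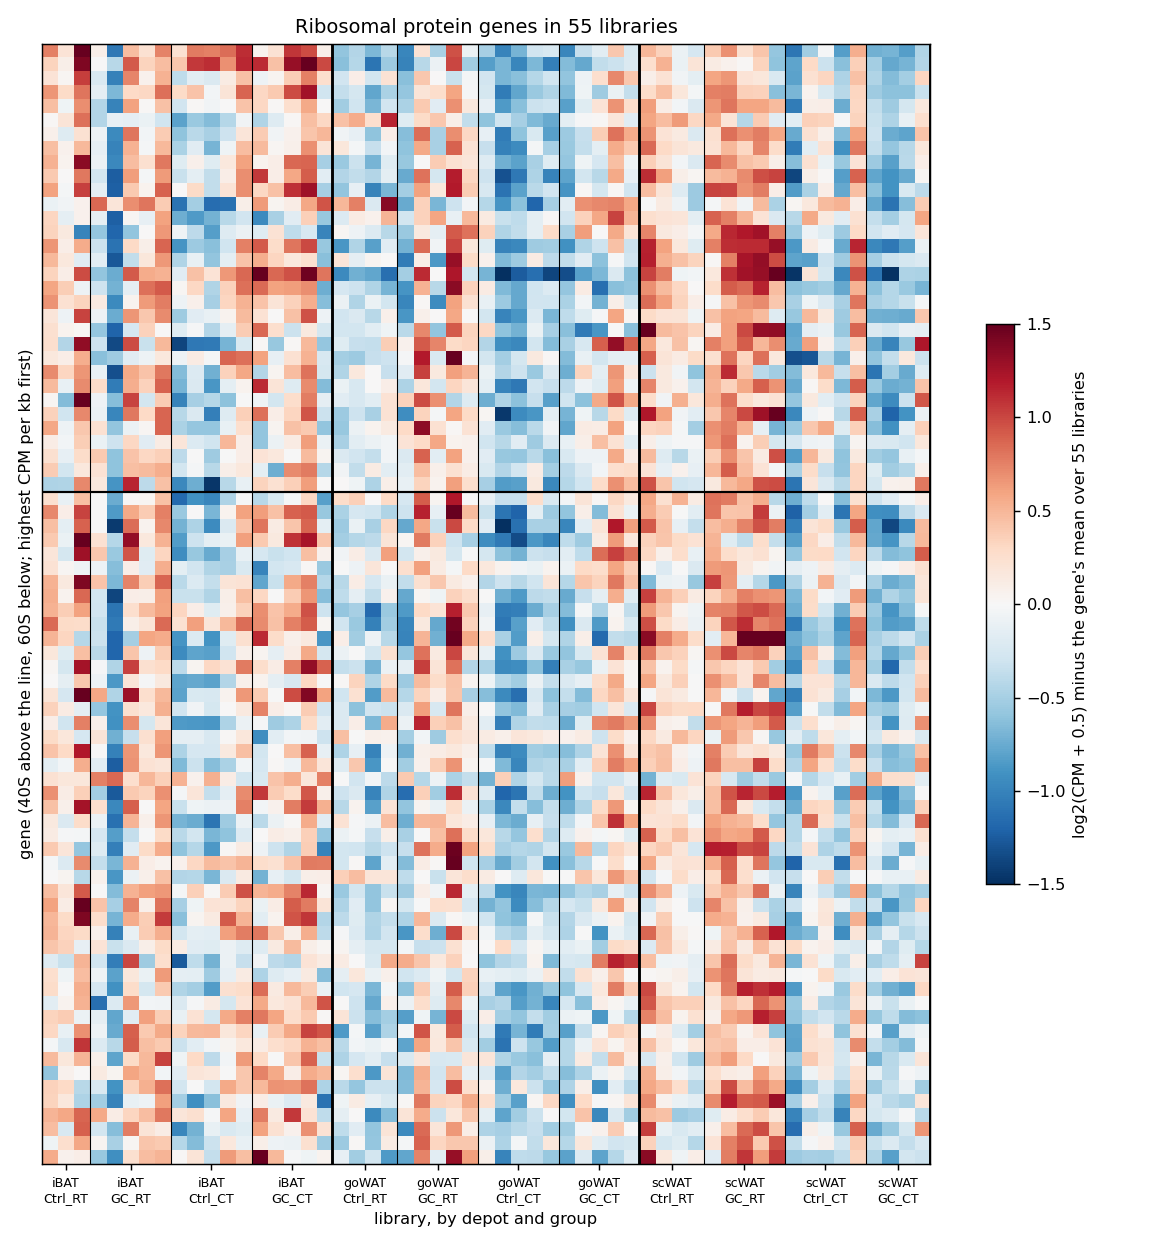
Log2(CPM + 0.5) minus each gene's mean over the 55 libraries, for 80 genes (rows, 40S above the line and 60S below, each from the highest to the lowest level per kb) and 55 libraries ordered by depot and group (columns), with colours clipped at 1.5 on either side of 0. Most rows change colour together from library to library, and scWAT GC RT is above scWAT GC CT in most rows. Rpl3l, Rpl10l and Rpl39l are left out.

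Genes that act with the ribosome were read from 4 further lists. Of 21 genes of elongation and other TOP mRNAs, 5 fell and 0 rose in scWAT between GC CT and GC RT (median -0.30). The 3 of smallest adjusted p were Pabpc1, the cytoplasmic poly(A)-binding protein (-1.37 ± 0.26, edgeR adjusted p = 0.0140), Rack1, a 40S scaffold protein (-1.16 ± 0.28, edgeR adjusted p = 0.0203), and the nucleolar chaperone Npm1 (-0.79 ± 0.21, edgeR adjusted p = 0.0280). Of 20 initiation factors 2 fell, Eif2s2 (-1.48 ± 0.29) and Eif4a1 (-0.75 ± 0.23), and the Eif4a1 paralog Eif4a2 rose (0.98 ± 0.24). Of 36 genes of ribosome biogenesis, Nop58 fell (-0.89 ± 0.25) and Dkc1 rose (0.83 ± 0.25), both parts of small nucleolar ribonucleoproteins. Of 23 genes of mTORC1, LARP1 and MYC control, Rragc, a GTPase that recruits mTORC1 to lysosomes (-1.04 ± 0.22), and Max, the partner of MYC (-2.17 ± 0.46), fell, while Sesn2, an inhibitor of mTORC1, rose (1.42 ± 0.38). These are the lists' counts beside the 5.17% of all genes that fell and the 3.02% that rose in that comparison.

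In goWAT with GC at 22 °C, 2 of the 21 TOP genes rose, Fau, which encodes the 40S protein eS30 as a fusion (0.88 ± 0.24), and Nap1l1 (0.62 ± 0.18). Fbl, the methyltransferase of ribosomal RNA, fell (-1.95 ± 0.35, edgeR adjusted p = 0.00181), as did Nol6 (-0.82 ± 0.24), so that 2 of 36 biogenesis genes fell and 0 rose. Of all genes 3.13% rose and 2.85% fell in this comparison. Fbl stood at 3.34, 4.07, 2.75 and 5.08 CPM in Ctrl RT and at 1.04, 0.898, 0.817, 1.06 and 0.938 CPM in GC RT, without overlap. Its interaction was 2.15 ± 0.47 (edgeR adjusted p = 0.0438).

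Eif3f, a subunit of initiation factor 3, was called in the same 3 goWAT comparisons as Rps2. It stood at 282, 206, 282 and 504 CPM in Ctrl RT, at 95.8, 108, 149, 93.4 and 115 CPM in Ctrl CT and at 176, 151, 422, 350 and 239 CPM in GC CT. The Ctrl CT libraries lay below all libraries of the other 2 groups. The log2 fold changes were -1.49 ± 0.32 for cold in Ctrl, 1.28 ± 0.31 for GC at 13 °C and 2.24 ± 0.44 for the interaction (edgeR adjusted p = 0.0406, 0.0355 and 0.0186).

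In scWAT with GC at 22 °C, where no ribosomal protein gene was called, 4 of 36 biogenesis genes rose and 0 fell, beside 3.48% of all genes that rose and 3.45% that fell. The 3 of smallest adjusted p were Ltv1, which exports 40S precursors (1.06 ± 0.28, edgeR adjusted p = 0.0233), Nop58 (0.91 ± 0.25, edgeR adjusted p = 0.0313) and Utp20 of the small subunit processome (1.13 ± 0.33, edgeR adjusted p = 0.0398). Of the 21 TOP genes 2 rose, Nap1l1 (1.15 ± 0.23) and Pabpc1 (0.94 ± 0.26), beside the same 3.48%. In iBAT with GC at 13 °C, Ddit4, an inhibitor of mTORC1 also known as Redd1, fell (-2.84 ± 0.56, edgeR adjusted p = 0.0140). It stood at 12.02, 16.5, 29.2, 23.1 and 42.0 CPM in Ctrl CT and at 9.87, 2.49, 1.18, 1.91 and 2.27 CPM in GC CT, without overlap.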

How the data were processed

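RNA was measured in 55 libraries of 3 depots. The authors deposited raw read counts per Ensembl gene, 1 table per depot. Per the submitters' processing notes, the tools were FastQC, the aligner GSNAP 2018-07-04 and the counter featureCounts 1.6.3, and the build was mm10. Which annotation release and strand setting were used, and how reads matching several places were treated, is not given in the sources used here. All columns were used. Symbols, positions and biotypes come from GENCODE M21 (GRCm38), which named 31894 of the 31933 rows.

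Each depot was fitted on its own over its 4 groups with edgeR 4.0.16 in R 4.3.3 (filterByExpr with a minimum count of 10 and total of 15, TMM scaling, robust quasi-likelihood test, group means without a replicate block), and depots in 1 fit of all libraries. Benjamini-Hochberg adjustment ran over all genes tested, and genes were called under 0.05. CPM use TMM-adjusted totals. Standard errors derive from the F statistic. The biological coefficient of variation was 47.8% to 53.0%. Alternatives were RLE factors, TMM without the ribosomal protein genes, no filter, DESeq2 1.42.0, limma 3.58.1 voom with library weights, a replicate block, and leaving out libraries. The code was tested on simulated data.

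The members, gene lists and tests were chosen with earlier results of these data known. Named genes are, per comparison, up to 4 called rises and 4 called falls of largest size whose mean is 3 log2 CPM or more, all called paralogs, the paralogs, X-linked and stalk genes, a set of well-known members, the 3 highest and 3 lowest per length, the 3 most variable, and up to 3 called genes per list by adjusted p. The further called genes listed by name for scWAT, Rpl26 and Rps18 in goWAT, the members singled out between depots, and Rpl15 and Rpl37a were named after their values were seen. Values of some single members are not reported here.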

Additional observations from a re-analysis of the deposited data

Results flagged for a closer look

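A sample far from the others was looked for in 80 groups of 4 or 5 libraries, with the Dixon gap criterion, and 6 were found. Chance flags about 1 in 20 groups. In scWAT GC CT replicate 5 the share of counts in ribosomal protein genes was 0.882%, where the other 3 libraries of the group held at most 0.493%. Rpl22l1 was at 26.7 CPM in goWAT Ctrl CT replicate 1 and at 16.6 CPM in scWAT GC RT replicate 5. Rplp2 was at 219 CPM in goWAT Ctrl RT replicate 4, Rps2 at 83.5 CPM in goWAT GC CT replicate 1, and Rpl39 at 115 CPM in scWAT Ctrl CT replicate 5.

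The effect of corticosterone on Rps2 in goWAT differed between the temperatures by a test of that difference, with an interaction of 2.17 on the log2 scale.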

How the results depend on the processing

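Over all settings run, 497 values of the counts of called genes and of the share were the same (counts within 1.5 times), 28 were stronger, 59 weaker and 1 moved, the median of the members moved by less than the spread between libraries in 583 of 583 cases but changed sign in 10 of them, and the single genes kept their call in 1728 cases and lost it in 172, with 0 changing direction.

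The shares of all genes called that are given above are those of the main fit. For other tools and for libraries left out they are not given here. Whether a count of members moved with the calls over all genes was therefore not tested. Counts of called members under other tools are as follows. With DESeq2, goWAT GC against Ctrl had 14 called at 22 °C and 7 at 13 °C, its cold comparison under GC 3 and its interaction 2, and scWAT GC against Ctrl at 22 °C had 3 and its cold comparison in Ctrl 1. With limma voom, goWAT GC against Ctrl had 2 called at 22 °C and 28 at 13 °C, scWAT had 3 and 1 in the same comparisons and 8 for cold in Ctrl and iBAT 1 for cold in Ctrl. With RLE factors and without the filter on low counts, goWAT against scWAT had 7 and 7. The sign changes were 7 in the goWAT interaction (-0.04, from 0.04 to 0.29 in these settings), 1 in goWAT cold under GC (0.07), 1 in iBAT cold under GC (-0.0098) and 1 in iBAT against scWAT (-0.02). The share of counts had a median of 0.828% with named pseudogenes added. The median of all genes moved by up to -0.13 without the filter, by -0.18 to 0.14 with DESeq2 and by -0.12 without the Krt18-positive libraries.

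Leaving out sets of libraries gave these counts. Without the macrophage-rich libraries, which in iBAT are all at 22 °C, iBAT GC against Ctrl at 13 °C had 0 and scWAT cold under GC 0. Without the muscle-rich ones the same iBAT comparison had 0. Without the 2 low-count goWAT libraries, GC against Ctrl had 0 at 22 °C and 5 at 13 °C, and without the brown-rich ones 18 and 13. Without the epididymis-rich ones goWAT GC against Ctrl at 13 °C, cold in Ctrl and the interaction had 0 each. Without the Krt18-positive ones scWAT cold under GC had 0. Without all of these, which leaves a single library in iBAT Ctrl RT and in scWAT GC CT, fewer genes were called in each comparison between depots.

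Leaving out 1 library at a time, the counts ran from 0 to 1 in iBAT GC against Ctrl at 13 °C. In goWAT they ran from 0 to 16 for GC against Ctrl at 22 °C, 0 to 7 at 13 °C, 0 to 2 for cold in Ctrl, 0 to 1 for cold under GC and 1 to 1 for the interaction. In scWAT they ran from 0 to 3 for GC against Ctrl at 22 °C, 0 to 1 at 13 °C, 0 to 2 for cold in Ctrl and 1 to 36 for cold under GC. Between depots, where these alternatives were chosen after seeing the data, they ran from 5 to 19 for goWAT against scWAT, 17 to 24 for iBAT against scWAT and 38 to 45 for iBAT against goWAT. They stayed at 0 to 0 in the other comparisons.

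The labels do not say whether same-numbered libraries of different depots come from the same mouse. Same-numbered libraries deviated from their group means with correlations of -0.358 to 0.313 over 75 pairs within depots (median 0.0024), and 0 of 18 pairings had every correlation over 0.1. Across depots the correlations were -0.136 to 0.309 over 53 pairs (median 0.038), and 0 of 12 pairings had every correlation over 0.1. Weak correlations do not show that these libraries come from different mice. With the replicate number as a block, goWAT GC against Ctrl had 1 called at 22 °C and 0 at 13 °C, goWAT cold in Ctrl 1, and scWAT cold under GC 17.

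Group sizes of 3 to 5 and a biological coefficient of variation of 47.8% to 53.0% limit what can be called, and the lack of a call does not show that a level is the same. Genes with few counts, such as Rpl10l and goWAT Rpl39l, are limited by depth.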
